A study of Mus musculus with 2 samples.

Results

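The genes that make, export and use microRNAs were followed in mouse dorsolateral prostate with and without a miR-32 transgene. The set holds Drosha, Dgcr8, Dicer1, Xpo5, Tarbp2, Ago1, Ago2, Ago3, the processing cofactor Khsrp and Tmem245, whose locus contains the endogenous miR-32. All 10 genes had probes on the array, 19 of the 41174 non-control probes, chosen because their RefSeq accession maps to one of these genes. Of these, 13 probes of 9 genes were detected, which means that the scanner software called the same pool well above background on both arrays, whichever pool that was, among 17153 detected probes and 10435 detected genes in all.

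Total RNA of 6 wild-type mice was pooled, as was that of 6 ARR2PB-miR32 transgenic mice. Both genotypes were FVB/N and 6 months old. ARR2PB is a composite probasin promoter, which drives the transgene in prostate epithelium under androgen control, so other cells of the gland are not the target of the construct. Both pools were hybridised together to 2 arrays of 1 slide, the transgenic pool in Cy3 on array 1 and in Cy5 on array 2. The comparison asks how gene expression in the gland differs with the transgene. The arrays repeat 1 pair of pools and count as 1 replicate, so no difference below has a test of genotype or a p-value, and each ± is the SD over the 2 arrays, a technical error only. The spread between mice within a pool was not measured.

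Most microRNAs pass through 1 chain of steps. The primary transcript is cut in the nucleus by Drosha with its RNA-binding partner DGCR8, exportin 5 carries the hairpin to the cytoplasm, and Dicer with TRBP, the product of Tarbp2, removes the loop. An Argonaute protein then holds the mature strand and finds mRNAs through the seed, a short stretch near the 5′ end. KSRP, the product of Khsrp, is a KH-domain protein that binds the terminal loop of some precursors, of which let-7a is the best-known, and it also promotes decay of AU-rich mRNAs.

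As an example of a substrate of the pathway, the endogenous mouse Mir32 hairpin of 70 bases is shown (RefSeq, GRCm38.p6, chr4:56895229-56895298, minus strand). The sequence that the transgene carries was not examined. The capitals mark the annotated arms, miR-32-5p of 22 bases and miR-32-3p of 21. Drosha makes the outer ends of these arms and Dicer the ends facing the loop of 19 bases.
Mir32: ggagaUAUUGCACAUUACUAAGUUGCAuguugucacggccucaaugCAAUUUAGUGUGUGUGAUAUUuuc
For comparison, the Mirlet7a-1 hairpin of 94 bases (chr13:48538179-48538272, minus strand) is given with each GGG of its loop in capitals, since KSRP is known to bind G-rich stretches in the loop.
Mirlet7a-1: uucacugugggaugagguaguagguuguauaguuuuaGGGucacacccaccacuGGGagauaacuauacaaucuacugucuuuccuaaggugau
GGG occurred 2 times in the let-7a-1 loop of 29 bases and 0 times in the Mir32 loop. On the transcribed strand, 14.9% of the 644 mouse hairpins with 2 annotated arms held GGG in the loop. This describes letters only, and the arrays did not measure binding or processing.

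The seed of miR-32-5p, bases 2 to 8, is shared by 6 named mature microRNAs of the RefSeq table, all of which use the same Argonautes. It is in capitals below.
miR-32-5p: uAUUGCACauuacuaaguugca
miR-25-3p: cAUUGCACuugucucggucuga
miR-92a-3p: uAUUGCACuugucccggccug
miR-92b-3p: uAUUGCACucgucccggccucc
miR-363-3p: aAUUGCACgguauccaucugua
miR-367-3p: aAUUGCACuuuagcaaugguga
These microRNAs themselves were not analysed here.

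Khsrp had the highest ratio of the 9 detected genes. Its brightest probe was higher in the transgenic pool on both arrays, with a mean log2 ratio of 1.51 ± 0.17, or 2.86-fold, and ranked 13 from the top of 10435 genes. Drosha, the nuclear RNase III, came next at 0.90 ± 0.44, or 1.87-fold. The other 7 genes, among them Dicer1, Xpo5 and the detected Argonautes, lay between −0.16 and 0.44 and did not reach the size rule. A gene passed this rule when both arrays put it at least 1.5-fold, or 0.585 in log2, to the same side. By it, 2 of 9 members were higher and 0 lower, against 0.91% and 1.3% of all detected genes. No p-value stands behind these counts or the rank of Khsrp. Gene by gene, array 1 said little about array 2, with a Pearson's r of −0.027. With the scanner software's own ratios it was 0.27. The small SD of Khsrp therefore does not show that its rank would repeat. The members were chosen with earlier results of these data known, so the comparison with all genes is not an independent one.

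For Khsrp, the net signal of probe A_51_P281700, the spot minus its local background, was 7024 in the wild-type pool and 14097 in the transgenic pool on array 1. On array 2 it was 13874 in the wild-type pool and 7705 in the transgenic pool. The transgenic pool was thus the brighter one on array 1 and the dimmer one on array 2, where it carried Cy5. Before loess, only 0.0958% of detected genes had a ratio above 0 on array 2, with a median of −1.52 in log2. On array 1, with the transgenic pool in Cy3, 18.3% had a ratio above 0, with a median of −0.36. The transgenic pool was thus the dimmer one for most genes in either dye. How much of this came from the dye and how much from the pool was not tested. On array 2 Khsrp stood at −0.84 before loess, and loess, which subtracts the trend of the ratio with brightness, added 2.47. On array 1 the ratio was 1.00 before loess and 1.40 after it, and on array 2 it was 1.63 after it. The higher call on array 2 therefore rests on the dye correction.

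The scanner software's own correction gave 0.88 and 2.15 for this probe on arrays 1 and 2, with its stated errors of 0.22 and 0.28. The authors' deposited table gave 0.88 and 2.12. Khsrp was the 1 member past the rule in each of these, where 2.37% and 2.91% of genes were higher. With median centring, which corrects the dyes by 1 constant per array, the 2 arrays disagreed (1.31 and −0.42) and the call ended. By that setting 0.0192% of all genes were higher. The second Khsrp probe, A_52_P123252, was not detected: it was well above background in each pool on 1 array only, with ratios of 0.36 and −0.52. The result for Khsrp thus comes from 1 of its 2 probes.

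**Figure D1:**
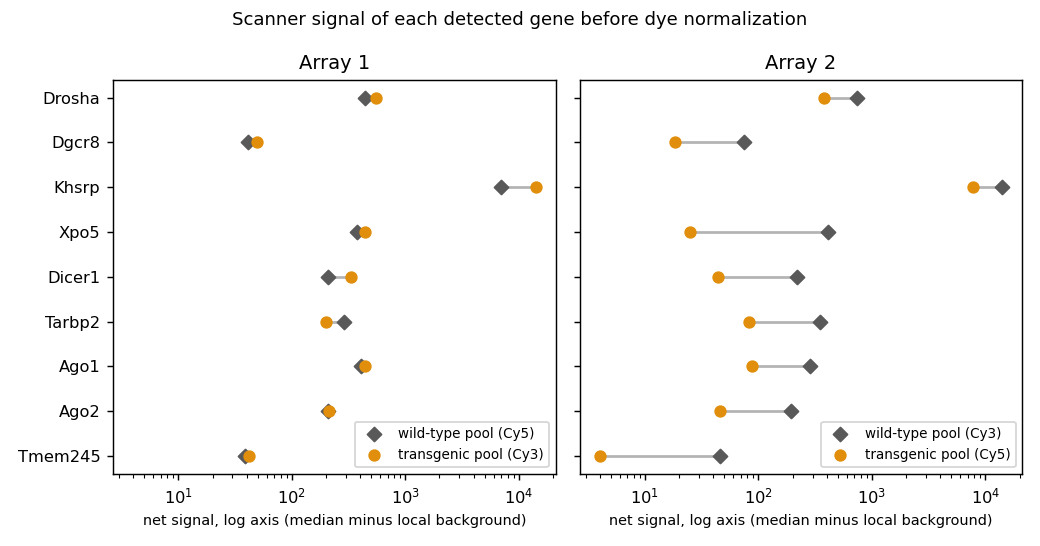
Net signal (spot median minus local background, log axis) of the brightest detected probe of 9 member genes in the wild-type pool (diamonds) and the transgenic pool (circles), by array; brightness is not comparable between probes. On array 1 the widest gap is that of Khsrp (7024 and 14097), while on array 2 the transgenic pool, in Cy5, is dimmer for all 9.

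Drosha had 2 detected probes that did not move together. Probe A_51_P127186 had net signals of 443 in the wild-type pool and 557 in the transgenic pool on array 1, and of 732 and 376 on array 2. Its log2 ratios were 0.59 on array 1 and 1.21 on array 2, so on array 1 it only just passed the limit (0.594 against 0.585). Before loess they were 0.25 and −0.85, so here too the sign on array 2 comes with the dye correction. Probe A_52_P578347, with net signals of 57.5 and 29.5 on array 1 and 53.5 and 7.5 on array 2, was at −0.30 and −0.16, below 0 on both arrays. In the transgenic pool it was above background on array 1 alone. The mean over both probes was 0.33 ± 0.27 and did not pass the rule.

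The scanner software's log ratio of the brighter Drosha probe was 0.34 on array 1 and 3.05 on array 2, with stated errors of 0.21 and 0.35, and the authors' deposited table had 0.34 and 3.03. With these values Drosha did not pass, since array 1 stayed below 1.5-fold, although the mean of 1.70 was larger. The arrays thus differed by far more than the stated error of a spot. Dgcr8, whose product is the RNA-binding partner of Drosha and whose own mRNA is a Drosha substrate, was dim. Its single probe had net signals of 41 and 49 in the wild-type and transgenic pools on array 1, and of 75 and 18.5 on array 2. Its log2 ratios were 0.21 and 0.069 (mean 0.14 ± 0.10), and the transgenic pool was well above background on 1 of the 2 arrays. Dgcr8 therefore did not pass the rule that its partner Drosha passed with 1 probe.

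**Figure D2:**
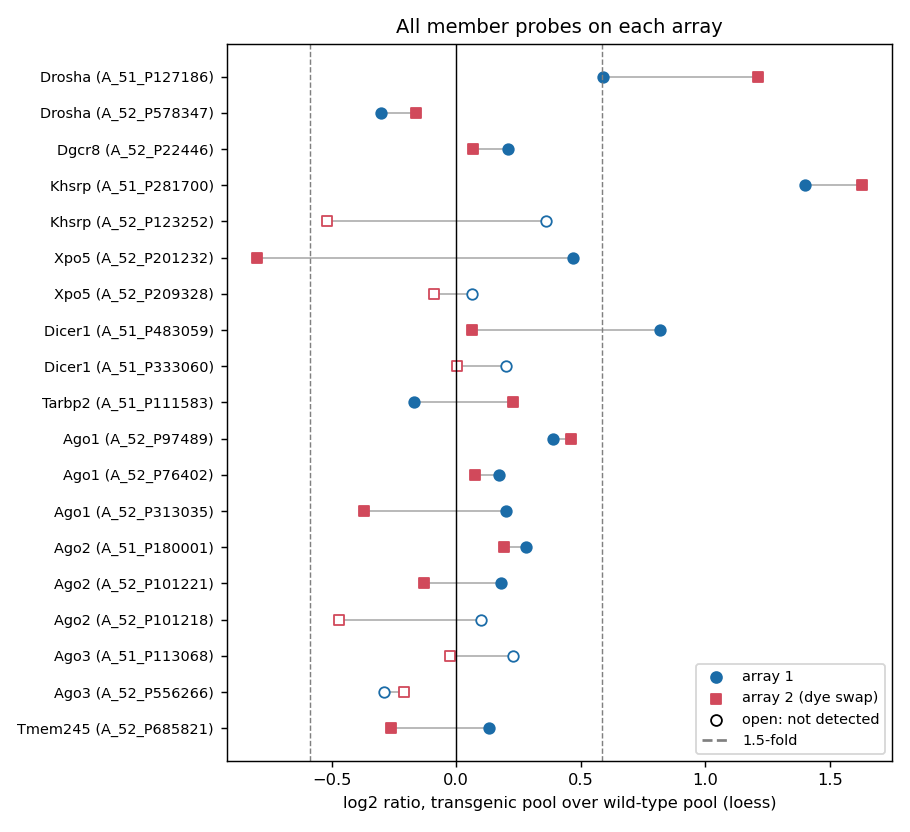
Log2 ratio of the transgenic over the wild-type pool after loess for all 19 member probes, with array 1 as circles, array 2 as squares, open symbols for probes that were not detected and dashed lines at 1.5-fold. Only A_51_P281700 of Khsrp and A_51_P127186 of Drosha lie beyond 1.5-fold on both arrays.

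Xpo5, the export receptor, went in opposite directions on the arrays. Its detected probe had net signals of 379 and 438 in the wild-type and transgenic pools on array 1, and of 413 and 25 on array 2. The log2 ratios were 0.47 and −0.80, with a mean of −0.16 ± 0.90, the largest SD among the 9 genes. The transgenic pool was not well above background on array 2, and the second probe was not detected, with ratios of 0.065 and −0.09.

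Dicer1, which cuts the loop off the hairpin, was higher on 1 array only. Its detected probe had net signals of 206.5 and 333 in the wild-type and transgenic pools on array 1, and of 220 and 44 on array 2. The log2 ratios were 0.82 and 0.062, with a mean of 0.44 ± 0.54, so the difference was smaller than its spread. The scanner software gave 0.93 and 0.49, above 0 on both arrays but short of 1.5-fold on array 2. The second Dicer1 probe was not detected, at 0.20 and 0.0050. Tarbp2, which encodes the double-stranded RNA-binding partner of Dicer, lay on opposite sides of 0. Its probe had net signals of 288 and 198.5 on array 1 and of 346.5 and 82.5 on array 2. The log2 ratios were −0.17 and 0.23 (mean 0.030 ± 0.28). The software's ratios were 0.091 and 0.13.

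The Argonautes showed small ratios. Ago1 had 3 detected probes. The brightest, A_52_P97489, had net signals of 407 and 440.5 in the wild-type and transgenic pools on array 1, and of 284.5 and 87 on array 2. Its log2 ratios of 0.39 and 0.46 agreed closely between arrays (mean 0.43 ± 0.049, 1.34-fold), above 0 on both but under the rule. With the scanner software they were 0.57 and 0.60, and 0.57 on each array in the authors' deposited table, just short of 0.585 on array 1. The other two Ago1 probes were lower, at 0.17 and 0.074 for A_52_P76402 and at 0.20 and −0.37 for A_52_P313035, so that the gene's mean over its probes was 0.15 ± 0.14.

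Ago2, which encodes the Argonaute best known for cutting its targets, had 2 detected probes. A_51_P180001 had net signals of 208 and 213 on array 1 and of 192 and 46 on array 2, and log2 ratios of 0.28 and 0.19 (mean 0.23 ± 0.059). A_52_P101221 was at 0.18 and −0.13. With the software's ratios the first probe was at 0.55 and −0.026, so its agreement between arrays held with loess and not there. The third probe, A_52_P101218, was not detected. Neither Ago3 probe was detected. Their net signals ranged from 0.5 to 34, and for 1 of these probes the software called each pool above background on 1 array. A change in Ago3 was not measurable at this signal.

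Tmem245, a membrane protein gene, hosts the endogenous Mir32 hairpin, which lies inside the gene on the same strand. Its probe had net signals of 39 and 42 in the wild-type and transgenic pools on array 1 and of 45.5 and 4 on array 2. The log2 ratios were 0.13 and −0.26 (mean −0.064 ± 0.28), with no direction common to both arrays. The transgenic pool was well above background on 1 array. This transcript is that of the host gene, and the product of the ARR2PB construct was not measured. Whether the construct shares sequence with this probe was not examined. Hairpins also lie on the same strand inside Dgcr8 (Mir1306) and Xpo5 (Mir693).

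Over the 9 detected genes the median was 0.23 in log2, and over all detected genes it was −0.06. The medians were 0.39 and 0.19 on arrays 1 and 2, against −0.027 and −0.084. Of the 9 genes, 6 were above 0 on both arrays, 0 were below 0 on both and 3 changed sign. In all detected genes, 17.5% were above 0 on both arrays and 28% below 0 on both. Without Khsrp and Drosha, the median of the other 7 was 0.14. The direction of the group's median depended on the dye correction: with median centring it was −0.075, where that of all genes was −0.57. At the level of probes, 2 of the 13 detected probes were higher and 0 lower, against 0.915% and 1.31% of all detected probes. Here too, the members were chosen with earlier results of these data known.

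**Figure D3:**
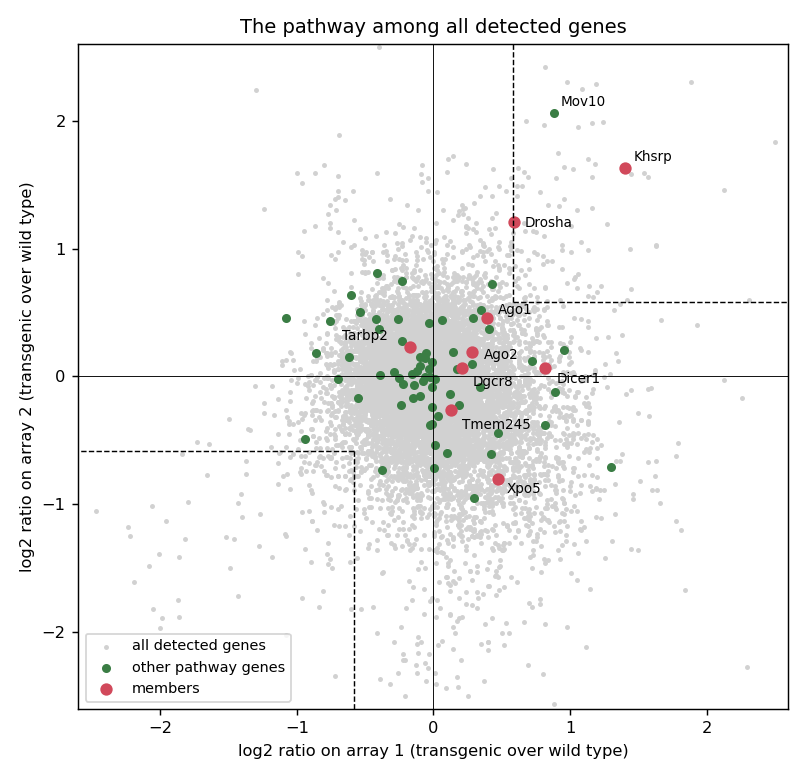
Log2 ratio on array 1 against array 2 for all detected genes (grey; 39 lie beyond the axes), 65 other pathway genes (green) and the 9 members (red), each by its brightest detected probe, with dashed lines around the regions past 1.5-fold on both arrays. Khsrp, Drosha and Mov10 lie in the upper region, and no pathway gene lies in the lower one.

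The wider pathway was taken from a list of 73 partners and effectors in 6 role groups. Of these, 72 had a probe and 65 were detected. Of the 65, Mov10 was higher and the other 64 passed the rule in neither direction, where 0.91% of all detected genes were higher and 1.3% lower. A count of 1 in 65 is close to that background. The median was −0.015, near that of all genes, and 37 of the 65 had opposite signs on the arrays. MOV10 is an RNA helicase that associates with Argonautes. Its single probe had net signals of 1833.5 and 2665.5 in the wild-type and transgenic pools on array 1, and of 1799 and 1557 on array 2. The log2 ratios were 0.88 and 2.06 (mean 1.47 ± 0.83), and 0.91 and 1.84 with the scanner software. Mov10 thus passed with either correction, and not with median centring (mean 0.53). The arrays differed widely in size, the ratio being larger on array 2.

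Among 12 partners of the nuclear step, none passed, with a median of −0.024. Ddx5, a helicase of the Drosha complex, was at −0.23 and 0.75, and Srrt, which links the cap-binding complex to primary transcripts, at −0.62 and 0.15. Of 4 export and Dicer partners, none passed (median −0.044). Ran, the GTPase that loads exportin 5, was at 0.0012 and −0.72, and the nuclear pore gene Ranbp2 at −0.41 and 0.81. For Ddx5, Srrt and Ranbp2 the arrays had opposite signs, and a second Ddx5 probe was at 0.29 and −3.17. A second Ranbp2 probe had the reverse signs, at 0.24 and −0.63.

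Among 13 detected genes of Argonaute loading and partners, 1 was higher (Mov10) and 12 were neither (median −0.015). Ptges3, which encodes the HSP90 cochaperone p23, was below 0 on both arrays (−0.94 and −0.49), but not past 1.5-fold on array 2. Ago4, the fourth Argonaute, was at −0.034 and 0.42. The scaffold genes Tnrc6a and Tnrc6b, whose products carry silencing from Argonaute to the deadenylases, were at −0.76 and 0.43 and at 0.34 and −0.085. The second Ptges3 probe was at −0.15 and 0.30.

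None of 19 detected deadenylation and decapping genes passed (median 0.024). Cnot3, a CCR4-NOT subunit, was at 0.43 and 0.72 on its brightest probe. With the scanner software's ratios it passed at 0.77 and 0.63, while its other detected probes were at −0.47 and −0.46 and at 0.96 and 0.022. Pabpc1, the cytoplasmic poly(A)-binding protein gene, was at 0.35 and 0.52. With the software's ratios the importin gene Ipo8 also passed, so that 3 of 65 were higher there, against 2.37% of all genes by the same ratios.

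None of 11 detected tailing and turnover genes passed (median −0.0060). The terminal uridylyltransferase gene Tut7 was at 0.72 and 0.12, and the nuclease gene Dis3l2 at 0.41 and 0.37, while the second probes of both genes were below 0 on both arrays. Lin28a and Lin28b, which block let-7 maturation, were not detected. Of 6 KH-domain relatives and other precursor-binding proteins, none passed (median −0.15). Fubp1, a close relative of Khsrp, was at 0.12 and −0.14 and Fubp3, another one, at −0.39 and 0.011, so neither had a ratio near that of Khsrp. Hnrnpk was at −0.38 and −0.73 on its brightest probe and, in the opposite direction and past 1.5-fold on both arrays, at 0.79 and 0.66 on another. Pcbp2 was at −0.86 and 0.18 on its brightest probe. Its other detected probes had the reverse signs, at 0.24 and −0.40 and at 0.33 and −0.50.

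**Figure D4:**
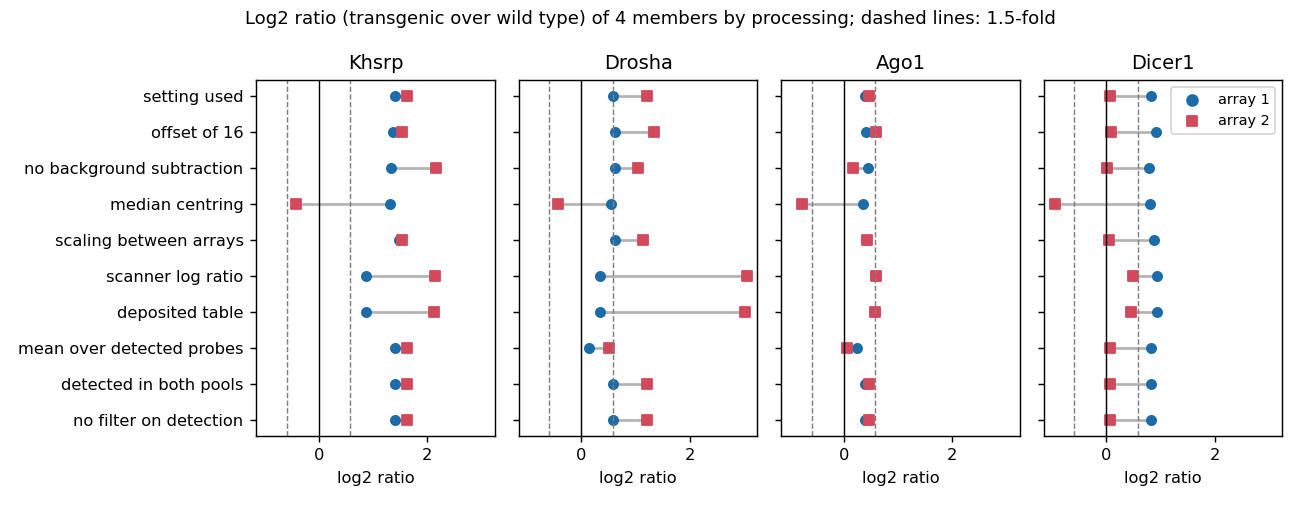
Log2 ratio on array 1 (circles) and array 2 (squares) of Khsrp, Drosha, Ago1 and Dicer1 under the processing used and 9 alternatives, with dashed lines at 1.5-fold. Khsrp stays past 1.5-fold on both arrays except with median centring. For Khsrp, the mean over probes and the detection filters use the same probe as the processing used and could not differ from it. The deposited table repeats the scanner software's ratios. Drosha falls short with median centring, with the mean over its probes and, on array 1, with the scanner software's ratios and the authors' deposited table (0.34 in each).

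The 250 bases before the start of Khsrp and Drosha are shown, since these were the 2 members past the rule. They were read from the RefSeq promoter table (GRCm38.p6), which holds 9 of the 10 genes, all but Ago2. Capitals mark CCAAT or its reverse complement ATTGG.
Khsrp, chr17:57031508-57031757, minus strand: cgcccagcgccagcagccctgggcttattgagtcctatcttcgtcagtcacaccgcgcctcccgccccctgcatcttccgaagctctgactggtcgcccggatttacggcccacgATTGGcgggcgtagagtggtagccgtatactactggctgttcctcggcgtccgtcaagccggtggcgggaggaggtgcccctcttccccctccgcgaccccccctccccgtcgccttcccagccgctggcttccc
Drosha, chr15:12824565-12824814, plus strand: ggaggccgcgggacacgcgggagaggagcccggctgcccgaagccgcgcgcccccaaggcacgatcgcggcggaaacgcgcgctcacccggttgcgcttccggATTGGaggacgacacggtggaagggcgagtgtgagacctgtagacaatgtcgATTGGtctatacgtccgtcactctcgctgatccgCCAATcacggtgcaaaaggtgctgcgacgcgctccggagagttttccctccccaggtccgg
The motif occurred 1 time before Khsrp and 3 times before Drosha. It occurred before 7 of the 9 genes, where a gene counted if any of its windows held the motif, and in 33.8% of all 32851 windows. The first count is by gene and the second by window, so the 2 are not directly comparable. Both strands were read, and a match is a match of letters and not a site.

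The tissue label was checked against markers. All 9 prostate luminal markers listed were detected in the wild-type pool, including Pbsn, Tgm4 and Krt8, and none of 4 seminal vesicle products was detected. By the size rule, 1.3% of all detected genes were lower and 0.91% higher. Of 6 detected adipocyte markers 5 were lower. Their summed normalized intensity was 7395 and 8546 in the wild-type pool and 2198 and 1585 in the transgenic pool on arrays 1 and 2. Lep was not detected. Of 9 detected myeloid markers 4 were lower, with sums of 3411 and 4870 against 1533 and 1777. None of the 3 basal and 4 smooth muscle markers passed the rule in either direction, with median log2 ratios of 0.058 and 0.087. Luminal markers had 3 of 9 lower and 0 higher. The lower ones were Hoxb13 (−0.71 and −0.67), Msmb (−1.12 and −0.59) and Sbp (−2.88 and −3.48). The luminal sums were 403552 and 321493 against 316078 and 503466. The part of these cell types in the ratios of Khsrp, Drosha and Mov10 was not tested. In whole tissue, fewer cells of a type and less RNA per cell cannot be told apart.

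On arrays 1 and 2, Cy3 was well above background at 58.3% and 57% of spots and Cy5 at 42.1% and 21.1%. Of the 19 member probes, the transgenic pool gave a signal above background for 17 on array 1 and for 7 on array 2. In 318 of the 10435 detected genes the ratio followed the dye past 1.5-fold on both arrays, and in 0 of the 9 members. With so few members, a count of 0 beside that share does not show that they were free of dye effects.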

How the data were processed

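The deposited signals are median spot and local background intensities of 2-colour Agilent arrays, and the scanner software's ratio of Cy5 to Cy3, background-subtracted and dye-normalized, is deposited as log10, per the file headers (Feature Extraction 11.0.1.1). The authors' deposited value table gives log2 ratios for 8533 rows. Each column matched the software's ratio of transgenic over wild type (r = 1.0000 on each array, column medians 0), so scale and direction were found, while its filter is not stated there. It lists 7 member probes of 6 genes.

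With limma 3.58.1 (R 4.3.3), background was corrected by normexp (offset 50) and the dyes of each array balanced by loess, where controls and outlier spots had weight 0. Directions rest on the dyes in the labels, array 2 being turned. Spots of a probe were averaged, and a gene took its brightest detected probe. Accessions were matched to RefSeq symbols (GRCm38.p6), and 27816 probes had one. Across detected genes Pearson's r between the arrays was −0.027, and 0.27 with the software's ratios (genes are not independent replicates). Named genes were all members and each other pathway gene past the rule. Up to 2 of each role group with the largest absolute mean log2 ratio were also named. Ago4, Tnrc6a, Tnrc6b, Ipo8, Fubp1, Fubp3 and the Lin28 genes were added for their roles or after their values were seen. A second promoter motif that was searched is not reported here. Members and lists were chosen with earlier results of these data known. Alternatives are in the closing section. The number of arrays limits the precision. Figures used matplotlib 3.10.9.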

Additional observations from a re-analysis of the deposited data

How the results depend on the processing

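Alternatives were a smaller offset (16), no background subtraction, median centring, scaling between arrays, the scanner software's ratios, the authors' deposited table, the mean over probes, 2 other detection filters and each array alone. The members higher (2) became 0 with median centring and 1 with the scanner software's ratios, in the deposited table and with the mean over probes. Khsrp kept its call in all of these but median centring (0.45), and Drosha lost it in these 4 settings (0.069, 1.70, 1.68 and 0.33). Only the brightest Khsrp probe was detected, so the mean over probes and the detection filters could not change its value. The deposited table repeats the software's ratios. The settings are therefore not separate checks of Khsrp, and its second probe entered none of them. On array 1 alone 3 members were higher and 0 lower, where 845 and 558 of all 10435 detected genes were. On array 2 alone 2 members were higher and 1 lower, where 544 and 1569 of all 10435 were. The lower one was Xpo5 (−0.80), and lower genes were common on that array. The members' median of 0.23 was −0.075 with median centring, 0.63 over the 6 genes of the deposited table, 0.44 over the 6 detected in both pools, 0.14 with the mean over probes, and 0.19 to 0.39 on single arrays. Of the 65 other pathway genes, 0 were higher and 7 lower with median centring, where 2 and 554 of all 10435 genes were. With the scanner software's ratios 3 were higher and 0 lower, where 247 and 627 of all genes were. Of the 46 with deposited values, 3 were higher and 0 lower, where 178 and 119 of 6127 genes were. On array 1 alone 6 of the 65 were higher and 7 lower, where 845 and 558 of all 10435 genes were. On array 2 alone 5 were higher and 6 lower, where 544 and 1569 were. The cause of these changes was not tested. Over all genes, 95 higher and 136 lower became 2 and 554 with median centring, 247 and 627 with the software's ratios and 149 and 240 with the smaller offset. Low Cy5 signal on array 2 (median 10 above background, and 26 on array 1) limits what the second array can show for dim genes such as Ago3, Dgcr8 and Tmem245.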
